A study of Saccharomyces cerevisiae with 25 samples.

Results

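Budding yeast of the eS7A-WT strain was compared 4 h after the addition of tunicamycin (Tm) with the same strain before the addition, in 7 of the 25 libraries of the series. The 4 h group, with Tm at 1 µg/mL, held 2 ribosome profiling and 2 RNA-seq libraries, and the 0 h group, without Tm, held 2 ribosome profiling libraries and 1 RNA-seq library. The members were chosen by strain and time from the sample labels, and no gene was selected beforehand, so every ORF with enough reads was tested. Both groups shared one genotype, W303 MATa with ade2, his3, leu2, trp1, ura3 and can1 alleles, in which both chromosomal genes of the small-subunit protein eS7 had been removed (RPS7A with HisMX6, RPS7B with natNT2) and HA-tagged eS7A was supplied from a plasmid. The labels and the study's methods name no library of untreated cells grown for the additional 4 h, so an effect of Tm and an effect of longer growth cannot be told apart. The ribosome profiling and RNA-seq libraries came from 2 biological replicates by the study's account, and the medium of these cultures is given only as YPD or SC with glucose. The comparison addresses how mRNA levels and translation respond to ER stress in cells whose eS7A can be ubiquitinated. The fit behind every test also held 8 libraries of the eS7A-4KR strain, at 0 h and at 4 h of Tm. That strain differs in its plasmid eS7A, in which the ubiquitinated lysines are replaced by arginine. Its libraries help to estimate the spread, and its response is set beside that of eS7A-WT. Each gene was described by 3 quantities: the mRNA level from RNA-seq, the footprint level from ribosome profiling, and the translation efficiency (TE), the footprint change minus the mRNA change on the log2 scale.

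Tm inhibits the first step of protein N-glycosylation, in which the dolichol-linked sugar precursor is built, and misfolded glycoproteins then accumulate in the endoplasmic reticulum (ER). In yeast the ER membrane kinase and nuclease Ire1 senses this state and removes an intron from HAC1 mRNA. The intron blocks translation, and the spliced mRNA gives the transcription factor Hac1, which activates chaperone, glycosylation, degradation and trafficking genes in the unfolded protein response (UPR). Stressed yeast cells are also known for a broader response, in which ribosome genes are repressed and genes for storage carbohydrates, chaperones and oxidant defence are induced.

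Library totals were lower for footprints at 4 h (7830493 and 10611458 counts) than at 0 h (27357585 and 33858553), while RNA-seq gave 37909219 and 43144460 counts at 4 h and 49246452 at 0 h. The 10 most abundant genes took 12.1% to 23.7% of each library. RPS7B RNA-seq counts were 0.338% to 0.435% of those of RPS7A in eS7A-WT, against 17.9% to 26.8% in W303, which has both chromosomal genes. RPS7B footprint counts were higher, 6.78% to 8.02% of those of RPS7A in eS7A-WT, against 33.9% to 50.5% in W303; how footprints were divided between these paralogs was not tested. Levels are given as cpm, counts per 1000000 counts of a library, scaled by TMM normalization within each assay. The a-specific genes of a MATa strain summed, without TMM scaling, to between 404.5 and 656.2 RNA-seq cpm and 481.6 and 828.9 footprint cpm in eS7A-WT, and the alpha-specific genes to between 1.67 and 12.3 RNA-seq cpm and 0.768 and 15.1 footprint cpm. Replicates of each group had a Spearman correlation of 0.993 to 0.998 over genes.

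At 4 h after the addition of Tm the mRNA level of 1605 genes rose and that of 1716 fell among 5558 tested, at an adjusted p below 0.01 by the quasi-likelihood test of edgeR, adjusted by Benjamini and Hochberg (28.9% and 30.9% of genes). Footprints rose for 1879 genes and fell for 1981 (33.8% and 35.6%). TE rose for 121 genes and fell for 122 (2.18% and 2.2%), and 153 genes were called in TE without 4 h RNA-seq library 2. These shares are the background for the pathway lists, and a pathway count near those shares is no result about the pathway. The standard deviation of the log2 change over all genes was 1.40 for mRNA, 1.71 for footprints and 0.59 for TE. Of the mRNA rises, 1481 were also footprint rises (92.3% of the mRNA rises and 78.8% of the footprint rises), and 1615 falls were shared (94.1% and 81.5%). Only 8 genes rose in mRNA and fell in footprints, and 1 gene did the opposite. The mRNA and footprint changes had a Pearson r of 0.947 across the 5558 genes, which are not independent replicates. Scaling by total counts without TMM moved the median log2 change of all genes to 0.65 (mRNA), 0.86 (footprints) and 0.19 (TE) and gave 2087 mRNA rises against 723 falls, 2927 footprint rises against 904 falls, and 98 TE rises against 87 falls, and so all changes are stated relative to the median gene. Where this scaling moved the counts of a pathway by over 1.5 times in either direction, or turned the sign of its median, its value stands beside the main one as the value by total counts.

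**Figure D1:**
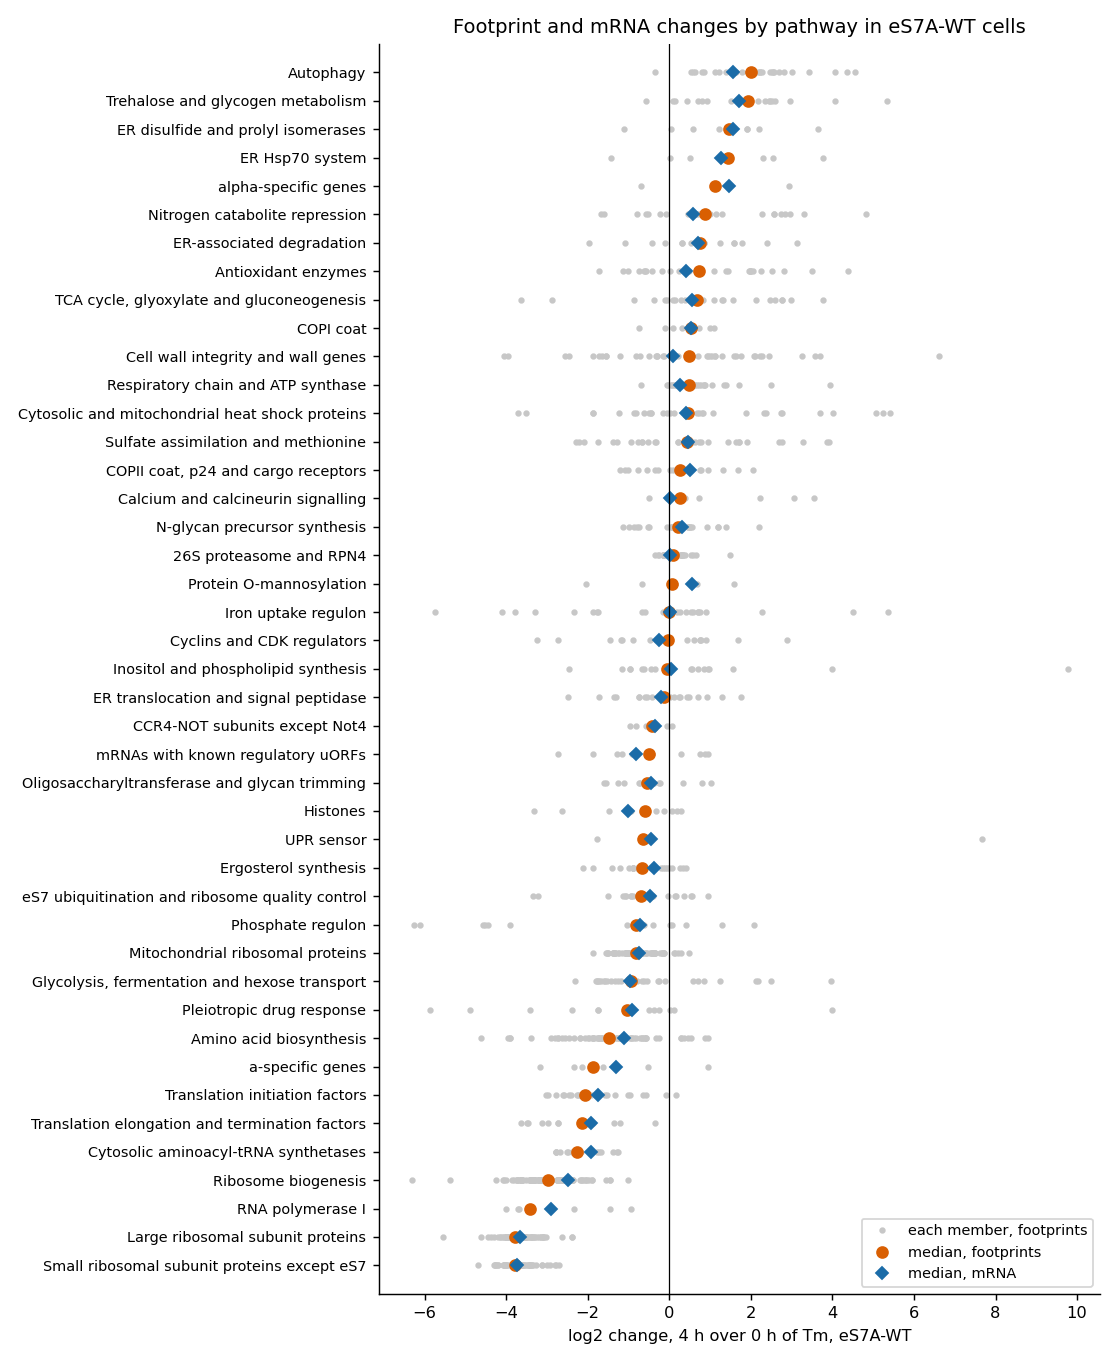
Median log2 change at 4 h over 0 h of Tm for 43 gene lists in eS7A-WT (x axis, log2), with mRNA medians as diamonds, footprint medians as filled circles and the footprint change of each member as a grey dot. Autophagy, storage carbohydrate and ER folding genes sit at the top, and ribosomal protein, RNA polymerase I and ribosome biogenesis genes at the bottom.

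The largest footprint response among the UPR regulators was that of HAC1 (YFL031W, chromosome VI, 75179 to 76147, assembly R64). HAC1 had 1558 and 1529 RNA-seq cpm at 4 h, against 736 cpm at 0 h, a log2 mRNA change of 1.07. Its footprint level was 1958 and 2898 footprint cpm at 4 h, against 11.9 and 12.1 cpm at 0 h. No 4 h library overlapped a 0 h library, as held for 1878 of the 1879 footprint rises. TE of HAC1 rose (log2 TE change 6.59, standard error 0.335, edgeR adjusted p = 5.12e-13). IRE1 footprints fell (log2 footprint change -0.64, standard error 0.151, edgeR adjusted p = 4.87e-04), while IRE1 without 0 h footprint library 1 or 4 h footprint library 2 (edgeR adjusted p = 0.0132 to 0.0182) was not called. Total-count scaling turned the IRE1 footprint change to a log2 value of 0.20, not called (edgeR adjusted p = 0.539). Footprints of TRL1 fell too, the tRNA ligase that joins the HAC1 exons (log2 footprint change -1.76). The ORF counts do not separate spliced from unspliced HAC1.

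Of 8 genes of the ER Hsp70 system, 6 rose and 1 fell in mRNA, or 7 and 0 by total counts, with a median log2 change of 1.27. In footprints 6 rose and 1 fell, or 7 and 0 by total counts, with a median of 1.44. KAR2, the ER Hsp70 itself (BiP), had 3594 and 3788 RNA-seq cpm at 4 h, against 613 cpm at 0 h, and 5016 and 6987 footprint cpm at 4 h, against 882 and 1164 cpm at 0 h. Both KAR2 changes passed the threshold (log2 mRNA change 2.59, standard error 0.310, edgeR adjusted p = 5.40e-07, and log2 footprint change 2.55). SIL1, its nucleotide exchange factor, had the largest rise of the list (log2 footprint change 3.77), above KAR2 and the lumenal J-protein JEM1 (2.29). CNE1, the calnexin homolog, was the member that fell (log2 footprint change -1.42). CNE1 lost its footprint call by total counts (edgeR adjusted p = 0.129).

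Of 9 genes for disulfide formation and prolyl isomerization in the ER, 7 rose and 1 fell in mRNA, or 8 and 0 by total counts (median log2 change 1.57). Footprints gave the same counts under both scalings, with a median of 1.46. ERO1, the oxidase that supplies disulfides, had 1044 and 1007 RNA-seq cpm at 4 h, against 105 cpm at 0 h, and 1626 and 2246 footprint cpm at 4 h, against 141 and 169 cpm at 0 h. ERO1 thus rose in both assays (log2 footprint change 3.65, standard error 0.216, edgeR adjusted p = 5.16e-13). PDI1, protein disulfide isomerase, and its relatives MPD1 and EUG1 rose by log2 footprint changes of 1.89, 2.19 and 1.46, while EPS1, a membrane-bound relative, fell (-1.10). No gene of these folding lists was called in TE. EPS1 lost its footprint call by total counts (edgeR adjusted p = 0.264).

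Among 24 genes that build the N-glycan precursor, 10 rose and 6 fell in mRNA, or 13 and 0 by total counts (median log2 change 0.30). The largest rise was that of GFA1, the first enzyme of amino sugar synthesis, which also feeds chitin, with 1331 and 1377 RNA-seq cpm at 4 h, against 301 cpm at 0 h, and 2395 and 3334 footprint cpm at 4 h, against 542 and 711 cpm at 0 h (log2 mRNA change 2.17, standard error 0.279, edgeR adjusted p = 1.06e-06); an annotated locus overlaps GFA1 over 255 bases. ALG7, the enzyme that Tm inhibits, rose in mRNA (log2 mRNA change 0.93, standard error 0.127, edgeR adjusted p = 8.44e-07). Of 12 genes of the oligosaccharyltransferase, which transfers the glycan, and of glycan trimming, 2 rose and 5 fell in mRNA, or 4 and 0 by total counts, with a median log2 change of -0.44 (0.22 by total counts). TE of the trimming glucosidases CWH41 (log2 TE change -0.85) and ROT2 (-0.76) fell, but the calls were lost for CWH41 without 4 h RNA-seq library 1 (edgeR adjusted p = 0.0118) and for ROT2 without 0 h footprint library 1 or 2, 4 h RNA-seq library 1 or 2 or 4 h footprint library 2 (edgeR adjusted p = 0.0190 to 0.0652). OST2, an oligosaccharyltransferase subunit, rose (log2 footprint change 1.01). In protein O-mannosylation, 3 of 6 mannosyltransferase genes rose in mRNA, led by PMT3 (1.90), and 1 fell, PMT4 (-1.66). CWH41 and ROT2 lost their TE calls by total counts (edgeR adjusted p = 0.283 to 0.593). ROT2 lost its TE call with the newer quasi-likelihood method (edgeR adjusted p = 0.0354). ROT2 lost its TE call with 10 counts required in every eS7A-WT library (edgeR adjusted p = 0.0101).

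ER-associated degradation exports misfolded proteins to the cytosol for the proteasome. In its list 10 of 16 genes rose and 2 fell in mRNA, or 12 and 0 by total counts (median log2 change 0.71). In footprints 9 rose and 3 fell, or 12 and 0 by total counts (0.75). DER1, a membrane protein of the export channel, had 70.9 and 66.3 RNA-seq cpm at 4 h, against 10.3 cpm at 0 h, and 59.7 and 72.6 footprint cpm at 4 h, against 7.58 and 7.55 cpm at 0 h (log2 footprint change 3.12, standard error 0.135, edgeR adjusted p = 1.76e-16). Its paralog DFM1 (2.39) and the scaffold USA1 (1.79) rose as well, and so did HRD1, the membrane ubiquitin ligase (1.59). MNL1, the mannosidase that marks glycoproteins for degradation, fell (log2 footprint change -1.97). Of 33 proteasome genes with their activator RPN4, 1 rose and 0 fell in mRNA, or 30 and 0 by total counts, around a median of 0.02. MNL1 lost its footprint call by total counts (edgeR adjusted p = 0.0102).

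Among 20 genes of translocation into the ER, 4 rose and 8 fell in mRNA, or 9 and 1 by total counts, with a median of -0.21 (0.45 by total counts). SEC72, a subunit of the post-translational channel, rose (log2 footprint change 1.77). SSH1, the alternative channel for co-translational import, fell (log2 footprint change -2.49), as did SRP68, a protein of the signal recognition particle (-1.36). Of 23 genes of COPII vesicles, p24 proteins and cargo receptors, which carry cargo out of the ER, 10 rose and 3 fell in mRNA, or 15 and 1 by total counts (median 0.50). ERV29, the receptor for soluble cargo, had 449 and 441 RNA-seq cpm at 4 h, against 106 cpm at 0 h, and 679 and 926 footprint cpm at 4 h, against 175 and 209 cpm at 0 h (log2 mRNA change 2.07, standard error 0.226, edgeR adjusted p = 6.78e-08). The cargo-selecting subunit SFB2 followed (1.69), whereas the receptor ERV14 fell (-1.22). The COPI coat, which returns vesicles to the ER, had 3 rises and 0 falls in 9 genes, or 8 and 0 by total counts (median 0.54). Its share of rises, 33.3%, was near the 28.9% of all genes.

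Lipid genes gave the second largest mRNA rise of the genome under the naming rule. INO1 (chromosome X, 134332 to 135933), inositol phosphate synthase, which makes the head group of phosphatidylinositol, had 582 and 606 RNA-seq cpm at 4 h, against 3.18 cpm at 0 h. Footprints on INO1 were 832 and 1089 footprint cpm at 4 h, against 1.38 and 0.681 cpm at 0 h, so that both 4 h libraries stood far above both 0 h libraries. All of its changes passed the threshold (log2 mRNA change 7.54, standard error 0.250, edgeR adjusted p = 1.36e-15; log2 footprint change 9.77; log2 TE change 2.22). OPI3, a phospholipid methyltransferase, rose by a log2 mRNA change of 3.87, and INO4, a subunit of the activator of these genes, by 1.29. CDS1, which makes CDP-diacylglycerol, fell (-2.09), and PCT1, of phosphatidylcholine synthesis, fell in TE (-1.20). Across the 19 genes of this list, 5 rose and 4 fell in mRNA, or 7 and 1 by total counts, no more than the background in either direction. Of 23 ergosterol genes 0 rose and 10 fell in mRNA, or 8 and 4 by total counts, around a median of -0.37 (0.29 by total counts), with the largest fall in ERG4, the last enzyme of the pathway (-1.72). PCT1 lost its TE call by total counts (edgeR adjusted p = 0.143). INO1 lost its TE call with the newer quasi-likelihood method (edgeR adjusted p = 0.471).

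**Figure D2:**
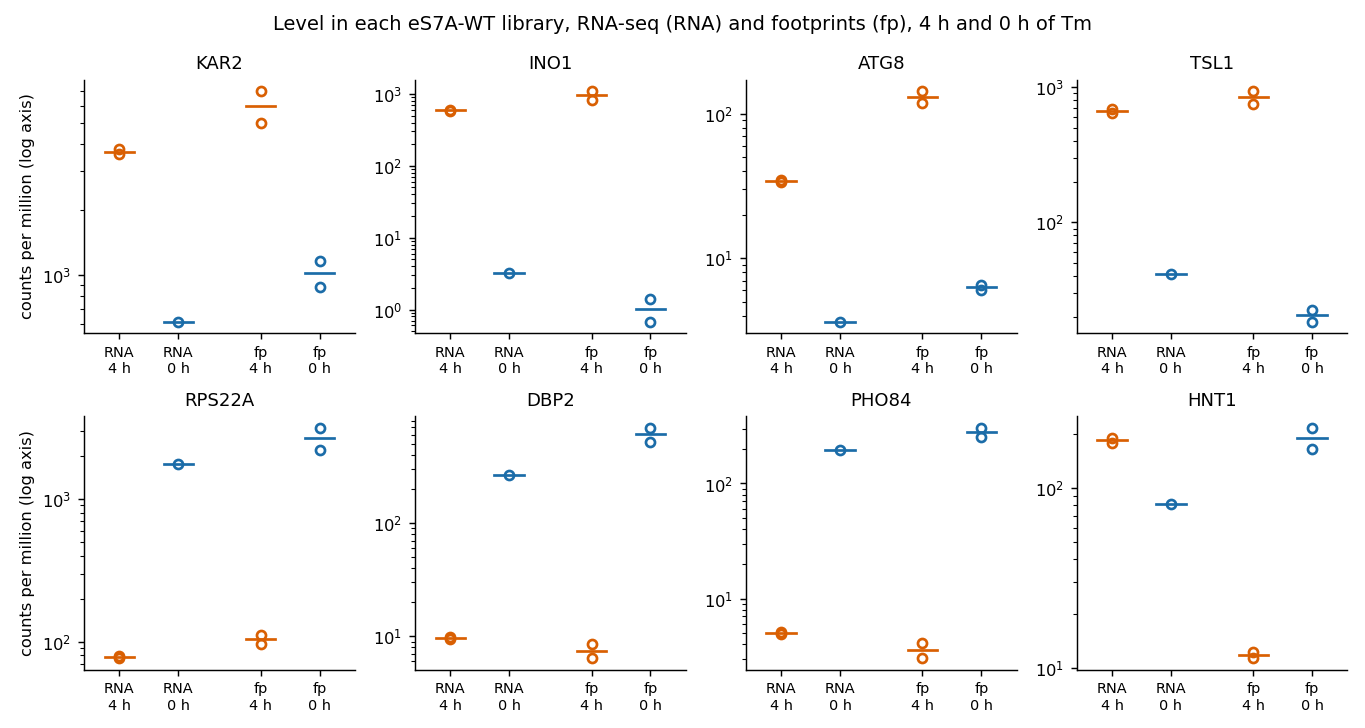
Level of 8 genes in each eS7A-WT library in cpm on a log axis, RNA-seq on the left and footprints on the right of each panel, with 4 h in orange, 0 h in blue, open circles for single libraries and bars for group means. KAR2, INO1, ATG8 and TSL1 were higher at 4 h in both assays, RPS22A, DBP2 and PHO84 were lower, and HNT1 was higher in RNA-seq and lower in footprints.

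The ribosome gave the lowest medians of the 43 lists. All 136 cytosolic ribosomal protein genes tested, those of eS7 aside, fell, both in mRNA (median log2 change -3.69, range -4.73 to -2.18) and in footprints (median -3.78), and under total-count scaling the medians of both subunits stayed below 0 in mRNA and footprints. RPS22A, a small-subunit protein, had 79.6 and 76.5 RNA-seq cpm at 4 h, against 1763 cpm at 0 h, and 96.5 and 111 footprint cpm at 4 h, against 2192 and 3141 cpm at 0 h (log2 mRNA change -4.50, standard error 0.281, edgeR adjusted p = 5.81e-13). RPL9A, of the large subunit, had 94.8 and 92.00 RNA-seq cpm at 4 h, against 2480.3 cpm at 0 h, and 137 and 169.9 footprint cpm at 4 h, against 3058 and 4473 cpm at 0 h (log2 mRNA change -4.73, standard error 0.288, edgeR adjusted p = 4.19e-13). Many ribosomal protein genes have near-identical paralogs, and how reads were divided between the copies is uncertain. The plasmid-borne RPS7A fell with the others (log2 mRNA change -3.16), as did the few reads assigned to RPS7B (-3.03). In TE the median change was -0.09 for each subunit (0.11 by total counts). Over combinations of single libraries this median ran from -0.51 to 0.38 for the small subunit and from -0.49 to 0.36 for the large. A TE call was made for 1 of the 136 genes. That gene was RPL22B, a minor paralog of RPL22A, with 6.05 and 6.13 RNA-seq cpm at 4 h, against 73.8 cpm at 0 h, and 3.93 and 2.56 footprint cpm at 4 h, against 138 and 179 cpm at 0 h (log2 TE change -1.94, standard error 0.277, edgeR adjusted p = 2.28e-05). RPL22B lost its TE call with the newer quasi-likelihood method (edgeR adjusted p = 0.0547).

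Ribosome assembly moved the same way. All 94 ribosome biogenesis genes fell in mRNA (median -2.49) and footprints (median -2.96), and 6 of them fell in TE (1 by total counts), around a median of -0.40. NSR1, a nucleolar protein of pre-rRNA processing, had 19.8 and 22.6 RNA-seq cpm at 4 h, against 510.4 cpm at 0 h, and 19.8 and 16.3 footprint cpm at 4 h, against 658 and 863 cpm at 0 h (log2 footprint change -5.39, standard error 0.171, edgeR adjusted p = 7.49e-18). DBP2, an RNA helicase, had 9.93 and 9.43 RNA-seq cpm at 4 h, against 268 cpm at 0 h, and 8.55 and 6.41 footprint cpm at 4 h, against 523 and 693 cpm at 0 h, so its footprints fell more than its mRNA (log2 TE change -1.53, standard error 0.253, edgeR adjusted p = 2.33e-04). The 8 RNA polymerase I genes tested, which transcribe rRNA, all fell (median log2 mRNA change -2.90), with RPA43 at -3.47 and RPA49 at -3.31. In the mitochondrial ribosome 49 of 67 genes fell and 0 rose in mRNA, or 1 and 2 by total counts, with a median of -0.75 (-0.09 by total counts) for mRNA and -0.82 (0.05 by total counts) for footprints. DBP2 lost its TE call with the newer quasi-likelihood method (edgeR adjusted p = 0.149).

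Factors that act with the ribosome fell as well. Of 29 initiation factor genes, 26 fell and 0 rose in mRNA (median -1.75), with the largest falls in the eIF3 subunits RPG1 (-2.55) and NIP1 (-2.47) and in the eIF4G gene TIF4631 (-2.53). GCN2, the kinase of eIF2, was not called in any of the 3 quantities. Of 15 elongation and termination factor genes 13 fell and 1 rose in mRNA, or 13 and 2 by total counts (median -1.93). YEF3, elongation factor eEF3, had 889.9 and 894 RNA-seq cpm at 4 h, against 8638 cpm at 0 h, and 916 and 1180.4 footprint cpm at 4 h, against 10927 and 15281 cpm at 0 h (log2 mRNA change -3.28, standard error 0.333, edgeR adjusted p = 2.17e-09). All 18 cytosolic aminoacyl-tRNA synthetase genes fell (median -1.91), for example KRS1 for lysine (-2.46) and CDC60 for leucine (-2.37).

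Of 20 genes of eS7 ubiquitination and ribosome quality control, a list that holds RPS7A and RPS7B, 1 rose and 10 fell in mRNA, or 5 and 3 by total counts, with a median of -0.48 (0.18 by total counts), and none was called in TE. MOT2, which encodes Not4, the ligase of eS7, had 56.4 and 59.3 RNA-seq cpm at 4 h, against 48.4 cpm at 0 h, and 97.9 and 87.6 footprint cpm at 4 h, against 73.6 and 71.5 cpm at 0 h. Neither MOT2 change passed the threshold (log2 mRNA change 0.26, standard error 0.173, edgeR adjusted p = 0.195). HEL2, the ligase that senses collided ribosomes, fell (log2 footprint change -1.12), as did GCN1, which binds stalled ribosomes (-1.49), and BRE5, the partner of the deubiquitinating enzyme Ubp3 (-0.88). MOT2 mRNA was called up by total counts (log2 mRNA change 0.92, edgeR adjusted p = 4.04e-04). Among the other 8 CCR4-NOT subunits, 3 fell and 0 rose in mRNA, or 0 and 0 by total counts, with a median of -0.36 (0.30 by total counts). HEL2 and BRE5 lost their footprint calls by total counts (edgeR adjusted p = 0.219 to 0.885).

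Genes of amino acid synthesis fell in both assays. Of 66 biosynthetic genes, 52 fell and 4 rose in mRNA, or 30 and 7 by total counts (median -1.10). Footprints fell for 58, or 38 by total counts (median -1.47). TE fell for 6 (9.09% of the list, against 2.2% of all genes), or 2 by total counts, with a median TE change of -0.23 (-0.02 by total counts). LEU9, an isopropylmalate synthase, had the largest mRNA fall of the list, with 7.74 and 8.97 RNA-seq cpm at 4 h, against 216 cpm at 0 h (log2 mRNA change -4.69, standard error 0.156, edgeR adjusted p = 2.48e-17). CPA1, a subunit of carbamoyl phosphate synthase whose mRNA carries an arginine-responsive upstream ORF, had 73.2 and 80.03 RNA-seq cpm at 4 h, against 134 cpm at 0 h, while its footprints were 15.7 and 15.8 footprint cpm at 4 h, against 100.3 and 107 cpm at 0 h (log2 TE change -1.91, standard error 0.197, edgeR adjusted p = 2.80e-07). The other TE falls were LYS4 (-1.63), of lysine synthesis, HIS4 (-1.37), of histidine synthesis, and ARG3 (-1.38), ARG8 (-1.41) and ARG56 (-0.84), all of arginine synthesis. The calls were lost for ARG3 without 4 h RNA-seq library 2 or 4 h footprint library 2 (edgeR adjusted p = 0.0122 to 0.0151) and for ARG56 without 4 h RNA-seq library 1 or 2 or 4 h footprint library 2 (edgeR adjusted p = 0.0138 to 0.0158). GCN4, the transcriptional activator of these genes, had 356 and 344 RNA-seq cpm at 4 h, against 751 cpm at 0 h, and 14.6 and 13.9 footprint cpm at 4 h, against 50.1 and 54.8 cpm at 0 h. Its footprints fell (log2 footprint change -1.87, standard error 0.176, edgeR adjusted p = 6.91e-10), and its TE change did not pass the threshold (log2 TE change -0.77, standard error 0.263, edgeR adjusted p = 0.0786), although it was called down with a replicate block within each assay (edgeR adjusted p = 7.70e-05) and by DESeq2 (adjusted p = 2.16e-04). In the 13 genes with known regulatory upstream ORFs, which include GCN4 and CPA1, 1 fell in TE without a block, CPA1. LYS4, ARG3, ARG8 and ARG56 lost their TE calls by total counts (edgeR adjusted p = 0.0116 to 0.330). ARG3 and ARG56 lost their TE calls with the newer quasi-likelihood method (edgeR adjusted p = 0.0203 to 0.0629).

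Sulfur and nitrogen genes had members on both sides. Of 32 genes of sulfate assimilation and methionine, 13 rose and 8 fell in mRNA, or 18 and 3 by total counts (median 0.46). In the main fit 40.6% of the list rose and 25% fell, against 28.9% and 30.9% of all genes. STR3, cystathionine beta-lyase, had 67.7 and 68.4 RNA-seq cpm at 4 h, against 5.79 cpm at 0 h, and 109 and 117 footprint cpm at 4 h, against 8.59 and 6.002 cpm at 0 h (log2 mRNA change 3.55, standard error 0.168, edgeR adjusted p = 1.72e-14). The sulfate permease SUL1 (3.28) and JLP1, an enzyme of sulfonate use (3.87), rose in footprints, and MET13, methylenetetrahydrofolate reductase, also rose in TE (1.08). SAM1, S-adenosylmethionine synthase, fell (-2.28). Of 23 nitrogen catabolite genes tested, among 25 listed, 13 rose and 3 fell in mRNA, or 11 and 0 by total counts (median 0.58). PUT1, proline oxidase, had 91.4 and 94.8 RNA-seq cpm at 4 h, against 13.4 cpm at 0 h, and 139.8 and 163 footprint cpm at 4 h, against 15.1 and 15.7 cpm at 0 h (log2 mRNA change 2.80, standard error 0.143, edgeR adjusted p = 8.92e-14), whereas the general amino acid permease GAP1 fell (-1.17). GAP1 lost its mRNA call by total counts (edgeR adjusted p = 0.0283). MET13 lost its TE call by total counts (edgeR adjusted p = 0.0686).

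Among the iron uptake genes footprints moved in both directions, with 9 rises and 10 falls, or 13 and 6 by total counts. These were 36% and 40% of the list, near the 33.8% and 35.6% of all genes. The footprint median was -0.0009 (0.84 by total counts), and single members ranged from -5.73 to 5.37. Of 25 genes tested, among 28 listed, 4 rose and 7 fell in mRNA, or 7 and 3 by total counts, and 2 rose and 5 fell in TE (20.0% of the list fell, against 2.2% of all genes), or 1 and 2 by total counts. FET3, the ferroxidase of high-affinity uptake, had 15.3 and 17.6 RNA-seq cpm at 4 h, against 348 cpm at 0 h, and 7.39 and 5.24 footprint cpm at 4 h, against 311 and 380.2 cpm at 0 h (log2 footprint change -5.73, standard error 0.184, edgeR adjusted p = 2.02e-18). The siderophore transporter SIT1 (-1.33), the ferric reductase FRE1 (-1.54) and the enterobactin transporter ENB1 (-1.31) fell in TE too. The call was lost for ENB1 without 0 h footprint library 1, 4 h RNA-seq library 2 or 4 h footprint library 2 (edgeR adjusted p = 0.0117 to 0.0327). TIS11, an RNA-binding protein that promotes decay of mRNAs for iron-using proteins, rose, with 36.9 and 41.3 RNA-seq cpm at 4 h, against 3.69 cpm at 0 h, and 61.9 and 75.2 footprint cpm at 4 h, against 3.21 and 2.66 cpm at 0 h (log2 footprint change 4.51, standard error 0.168, edgeR adjusted p = 5.61e-18). FRE3, a reductase for siderophores, was called up in TE on few counts, 85 and 34 footprints at 4 h, against 2 and 3 at 0 h. SIT1 and ENB1 lost their TE calls by total counts (edgeR adjusted p = 0.112 to 0.322). SIT1 and ENB1 lost their TE calls with the newer quasi-likelihood method (edgeR adjusted p = 0.0175 to 0.0308).

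The phosphate regulon held some of the largest falls. Of 16 tested, among 17 listed, 10 fell and 3 rose in mRNA, or 4 and 4 by total counts, and 3 fell in TE. PHO84, the high-affinity phosphate transporter, had 5.11 and 4.87 RNA-seq cpm at 4 h, against 195 cpm at 0 h, and 4.07 and 3.03 footprint cpm at 4 h, against 254 and 304 cpm at 0 h (log2 footprint change -6.25, standard error 0.205, edgeR adjusted p = 4.79e-19). An annotated noncoding locus overlaps PHO84 over 1764 bases on the other strand, and whether the counting used the strand is not stated. The acid phosphatase PHO3 had 6.72 and 7.77 RNA-seq cpm at 4 h, against 291 cpm at 0 h, the largest mRNA fall of all genes under the naming rule (log2 mRNA change -5.33, standard error 0.186, edgeR adjusted p = 6.16e-17). PHO5 (-2.24), PHO11 (-2.88) and PHO12 (-2.91), acid phosphatases repressed by phosphate, fell in TE; PHO11 and PHO12 are near-identical copies, so their values are not independent. PHM8, a nucleotide phosphatase, rose (log2 footprint change 2.07).

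Carbon metabolism genes had members in both directions. Of 31 genes of glycolysis, fermentation and hexose uptake, 15 fell and 6 rose in mRNA, or 15 and 10 by total counts (median -0.95). FBA1, aldolase, had 4792 and 5177 RNA-seq cpm at 4 h, against 17171 cpm at 0 h, and 5665 and 7825 footprint cpm at 4 h, against 19239.6 and 26798 cpm at 0 h (log2 mRNA change -1.78, standard error 0.391, edgeR adjusted p = 1.80e-04). GLK1, glucokinase, had 1462 and 1548 RNA-seq cpm at 4 h, against 123 cpm at 0 h, and 1908 and 2737 footprint cpm at 4 h, against 134 and 162 cpm at 0 h (log2 mRNA change 3.61, standard error 0.278, edgeR adjusted p = 7.95e-10), with an annotated locus overlapping it over 106 bases. PYK2, the minor pyruvate kinase, rose as well (2.16), and HXT5, a hexose transporter of slow growth, rose in mRNA (2.62) but fell in TE (-1.38). Of 26 TCA, glyoxylate and gluconeogenesis genes 15 rose and 2 fell in mRNA, or 22 and 1 by total counts (median 0.57). The rises were led by CIT3, a mitochondrial citrate synthase (2.75), and MLS1, malate synthase (2.75). PYC2, pyruvate carboxylase, fell in TE (-1.75). In the respiratory chain and ATP synthase 10 of 35 genes rose and 1 fell in mRNA, or 29 and 0 by total counts (median 0.27), with the NADH dehydrogenase NDE2 highest (4.03). The rises were 28.6% of the list, near the 28.9% of all genes, and the falls 2.86%, against 30.9%. HXT5 lost its TE call by total counts (edgeR adjusted p = 0.0234).

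Of 20 genes of trehalose and glycogen metabolism, 17 rose and 0 fell in mRNA (median 1.71), 17 rose in footprints (median 1.94), and 3 rose in TE, or 2 by total counts. TSL1, a regulatory subunit of trehalose synthase, had 646 and 689 RNA-seq cpm at 4 h, against 41.8 cpm at 0 h, and 744 and 932 footprint cpm at 4 h, against 22.5 and 18.5 cpm at 0 h (log2 footprint change 5.35, standard error 0.176, edgeR adjusted p = 2.31e-17). TSL1 also rose in TE (1.35), together with PGM2, the major phosphoglucomutase (1.34), and GDB1, the glycogen debranching enzyme (0.86). The TE calls were lost for TSL1 without 4 h RNA-seq library 1 (edgeR adjusted p = 0.0127) and for GDB1 without 0 h footprint library 2, 4 h RNA-seq library 1 or 2 or 4 h footprint library 1 (edgeR adjusted p = 0.0111 to 0.0273). TPS1, the catalytic subunit of trehalose synthase, rose in mRNA (2.11). Genes that make and genes that break down both sugars rose, the neutral trehalase NTH1 among them (2.07). GDB1 lost its TE call by total counts (edgeR adjusted p = 0.115). TSL1, PGM2 and GDB1 lost their TE calls with the newer quasi-likelihood method (edgeR adjusted p = 0.0120 to 0.0866).

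Cytosolic and mitochondrial chaperones had members in both directions. Of 31 genes 12 rose and 5 fell in mRNA, or 20 and 4 by total counts (median 0.42). In the main fit 38.7% of the list rose and 16.1% fell, against 28.9% and 30.9% of all genes. HSP26, a small heat shock protein, had 89.3 and 86.5 RNA-seq cpm at 4 h, against 5.11 cpm at 0 h, and 237 and 319 footprint cpm at 4 h, against 7.50 and 7.24 cpm at 0 h (log2 mRNA change 4.10, standard error 0.227, edgeR adjusted p = 9.97e-13). HSP12, a membrane-associated stress protein (4.35), HSP42, another small heat shock protein (4.14), and HSP104, the disaggregase (2.36), rose too. The inducible Hsp70 genes SSA3 (1.37) and SSA4 (1.72) rose in TE as well as in footprints, though not SSA3 without 0 h footprint library 1 (edgeR adjusted p = 0.0249). SSB1, the Hsp70 that binds nascent chains at the ribosome, had 495 and 542 RNA-seq cpm at 4 h, against 5929 cpm at 0 h, and 631 and 807 footprint cpm at 4 h, against 7951 and 10970.1 cpm at 0 h (log2 mRNA change -3.52, standard error 0.318, edgeR adjusted p = 2.88e-10), and its near-identical paralog SSB2 fell likewise (-3.18). Among 28 antioxidant genes 13 rose and 7 fell in mRNA, or 17 and 2 by total counts (median 0.41). The rises included CTT1, cytosolic catalase (2.63), PRX1, mitochondrial peroxiredoxin (2.61), and SRX1, sulfiredoxin (2.61), and the largest fall was that of SOD1, copper-zinc superoxide dismutase (-1.65). SSA3 and SSA4 lost their TE calls with the newer quasi-likelihood method (edgeR adjusted p = 0.0112 to 0.224). SSA3 lost its TE call with a replicate block by culture (edgeR adjusted p = 0.0245).

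Of 34 autophagy genes, 29 rose and 0 fell in mRNA, with a median log2 change of 1.55, and 32 rose and 0 fell in footprints, with a median of 1.997. ATG8, the ubiquitin-like protein of the autophagosome membrane, had 34.8 and 33.5 RNA-seq cpm at 4 h, against 3.64 cpm at 0 h, and 119 and 143 footprint cpm at 4 h, against 6.53 and 6.06 cpm at 0 h (log2 footprint change 4.37, standard error 0.156, edgeR adjusted p = 7.49e-18). ATG39, a receptor for autophagy of the nucleus and perinuclear ER, had 18.8 and 18.9 RNA-seq cpm at 4 h, against 1.42 cpm at 0 h, and 20.6 and 18.2 footprint cpm at 4 h, against 1.23 and 0.186 cpm at 0 h (log2 footprint change 4.56, standard error 0.349, edgeR adjusted p = 2.23e-13), and the ER receptor ATG40 also rose (1.93). In TE 4 members rose, or 2 by total counts: ATG32, the mitochondrial receptor (2.13), ATG8 (1.14), ATG5, of the conjugation system (0.99), and ATG19, a cargo receptor of vacuolar enzymes (0.79). The TE calls were lost for ATG8 without 4 h RNA-seq library 2 or 4 h footprint library 2 (edgeR adjusted p = 0.0122 to 0.0138), for ATG5 without 0 h footprint library 2, 4 h RNA-seq library 1 or 2 or 4 h footprint library 2 (edgeR adjusted p = 0.0194 to 0.0328) and for ATG19 without 0 h footprint library 2, 4 h RNA-seq library 1 or 2 or 4 h footprint library 2 (edgeR adjusted p = 0.0160 to 0.0251). ATG1, the kinase that starts the process, rose in mRNA (1.83). AMS1, the vacuolar alpha-mannosidase delivered through ATG19, was among the 10 largest mRNA rises (log2 mRNA change 5.52, standard error 0.211, edgeR adjusted p = 8.84e-15). ATG5 and ATG19 lost their TE calls by total counts (edgeR adjusted p = 0.0778 to 0.192). ATG8, ATG5 and ATG19 lost their TE calls with the newer quasi-likelihood method (edgeR adjusted p = 0.0126 to 0.238).

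Of 46 cell wall genes 16 rose and 10 fell in mRNA, with 3 rises and 2 falls in TE (9 and 0 by total counts). In mRNA 34.8% of the list rose and 21.7% fell, against 28.9% and 30.9% of all genes, around a median of 0.09. GSC2, the stress-induced glucan synthase, had 1902 and 1958 RNA-seq cpm at 4 h, against 56.2 cpm at 0 h, and 2437 and 3238 footprint cpm at 4 h, against 32.3 and 25.7 cpm at 0 h (log2 footprint change 6.61, standard error 0.211, edgeR adjusted p = 4.66e-17). The cell surface proteases YPS3 (3.36) and YPS1 (3.11) rose, as did SLT2, the kinase of the cell wall integrity pathway (1.68). The wall mannoproteins TIR1 (-3.19) and CWP1 (-2.31) fell. The targets of calcium signalling CMK2, a calmodulin-dependent kinase (3.26), RCN1, a regulator of calcineurin (2.18), and PMC1, the vacuolar calcium pump (1.48), rose among 5 rises and 1 fall in 11 genes (7 and 0 by total counts). Of 13 drug response genes 7 fell and 2 rose in mRNA. FLR1, a multidrug transporter of the plasma membrane, had 27.9 and 31.9 RNA-seq cpm at 4 h, against 117 cpm at 0 h, while footprints were 1.83 and 1.17 footprint cpm at 4 h, against 91.8 and 93.6 cpm at 0 h (log2 TE change -3.91, standard error 0.282, edgeR adjusted p = 2.85e-11), and ATR1, a related transporter, fell in TE as well (-2.45). PDR10, an ABC transporter, rose in TE (2.06), whereas PDR15, another, rose in mRNA (1.40) and fell in TE (-1.66), a call lost for PDR15 without 0 h footprint library 1 (edgeR adjusted p = 0.0117). ATR1 and PDR15 lost their TE calls by total counts (edgeR adjusted p = 0.0454 to 0.157). PDR15 lost its TE call with the newer quasi-likelihood method (edgeR adjusted p = 0.0158).

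Of 11 histone genes 7 fell and 0 rose in mRNA, or 6 and 2 by total counts (median -1.005), led by HTB2 (-3.001) and HTA2 (-2.83). Histone genes are transcribed mainly in S phase. Of 17 cyclins and cyclin-dependent kinase regulators, 5 rose and 7 fell in mRNA, or 6 and 2 by total counts. In the main fit 29.4% of the list rose and 41.2% fell, against 28.9% and 30.9% of all genes. PCL1, a cyclin of the kinase Pho85, rose (2.35), while FAR1, the cyclin-dependent kinase inhibitor that acts in pheromone arrest, fell (-3.05), as did the S-phase cyclin CLB6 (-2.55). The pheromone receptor STE2 of MATa cells had 70.3 and 67.4 RNA-seq cpm at 4 h, against 343 cpm at 0 h (log2 mRNA change -2.32, standard error 0.200, edgeR adjusted p = 8.94e-11). Of 6 a-specific genes, 4 fell and 0 rose in mRNA, or 3 and 2 by total counts. STE3, the receptor of the opposite mating type, had 7.98 and 9.004 RNA-seq cpm at 4 h, against 1.69 cpm at 0 h (log2 mRNA change 2.33, standard error 0.292, edgeR adjusted p = 1.37e-07), a low level at both times.

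The largest mRNA changes outside these groups belonged to genes with few reads at 0 h. ULI1, a small protein named for its induction by the UPR, had 618 and 608 RNA-seq cpm at 4 h, against 1.59 cpm at 0 h, and 620.3 and 857 footprint cpm at 4 h, against 0.373 and 0.557 cpm at 0 h (log2 mRNA change 8.59, standard error 0.306, edgeR adjusted p = 1.22e-15). MOH1 (6.64), the membrane protein gene RTA1 (6.39), the Rab-type GTPase YPT53 (6.24), YDL114W (7.14), YLR349W (5.98), MNC1 (5.83) and ROQ1, a regulator of the ubiquitin ligase Ubr1 (5.66), made up the 10 largest rises together with ULI1, INO1 and AMS1. YPT53 and YDL114W had 7 and 5 RNA-seq counts at 0 h. Among footprints YET2, an ER membrane protein (7.31), and AGX1, alanine-glyoxylate aminotransferase and the annotated neighbour of HAC1 (7.26), also ranked in the first 10. On the other side, INA1 had 10.01 and 10.8 RNA-seq cpm at 4 h, against 414 cpm at 0 h, and 8.27 and 5.24 footprint cpm at 4 h, against 552 and 676 cpm at 0 h (log2 footprint change -6.46, standard error 0.195, edgeR adjusted p = 1.55e-18), the largest footprint fall under the naming rule. FUR1, which salvages uracil (-4.86), and RKI1, of the pentose phosphate pathway (-4.69), completed the 10 largest mRNA falls with PHO3, PHO84, DBP2, RPL9A, LEU9, NSR1 and RPS22A.

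**Figure D3:**
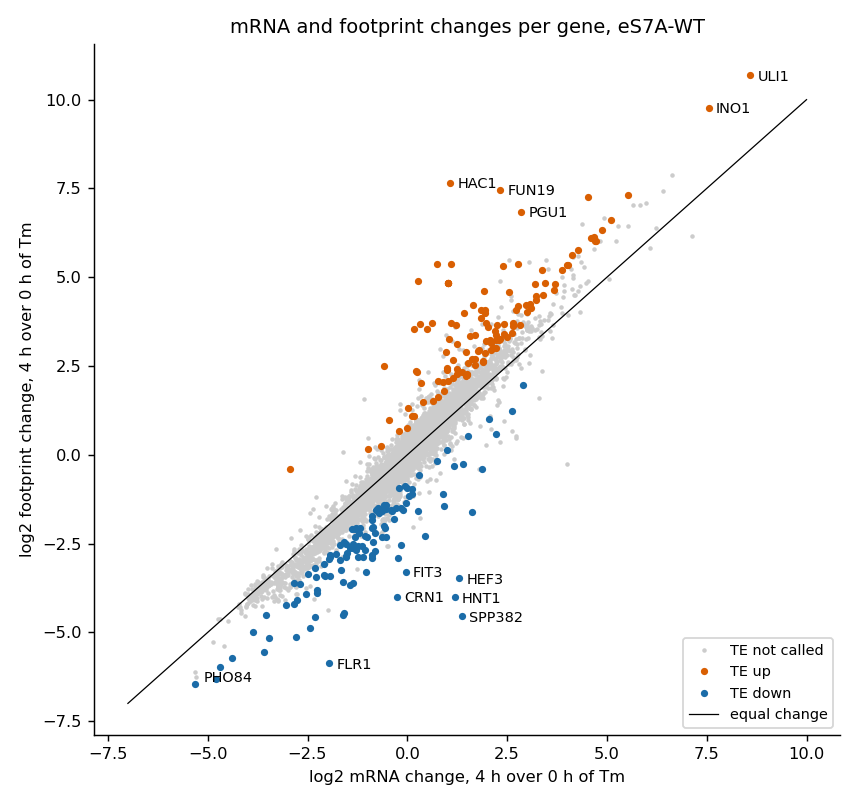
Log2 mRNA change (x axis) against log2 footprint change (y axis) at 4 h over 0 h of Tm for each of 5554 genes in eS7A-WT, with TE rises in orange, TE falls in blue and a line of equal change; 4 genes at 0 in both libraries of a time and assay are not drawn. Most genes lie near the line, and HAC1, FUN19, PGU1, SPP382, HNT1 and HEF3 lie farthest from it among the labelled genes.

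TE calls were few beside the mRNA and footprint calls, and most TE rises belonged to genes whose mRNA rose. Of the 121 TE rises, 103 had a called mRNA rise, 4 a mRNA fall and 14 neither. Of the 122 TE falls, 83 had a mRNA fall, 18 a mRNA rise and 21 neither. TE is computed from the same libraries as the other changes, so this is a description and not independent support. All 243 genes kept their direction in the 8 combinations of single libraries. These combinations share the only 0 h RNA-seq library, and the genes were called from the same libraries, so this adds no support. Of the called genes, 8 of the rises and 4 of the falls had a mean under 50 footprints, against 327 of 5558 genes tested. The footprint length window was 29 to 33 nt at 4 h and 30 to 33 nt at 0 h, so time and window cannot be told apart. Replicate numbers paired the footprint libraries, but the main fit left this pairing out. Fits with a replicate block called more genes in TE, 461 with 1 block by number, 610 with a block within each assay and 387 by culture. The newer quasi-likelihood method of edgeR called 124.

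FUN19, a protein of unknown function, had the largest TE rise after HAC1, with 63.1 and 71.9 RNA-seq cpm at 4 h, against 13.5 cpm at 0 h, and 93.05 and 97.3 footprint cpm at 4 h, against 0.597 and 0.433 cpm at 0 h (log2 TE change 5.14, standard error 0.322, edgeR adjusted p = 3.79e-13). ASP3, the cell wall asparaginase, has 4 copies (ASP3-1 to ASP3-4) with identical counts in every library, which count as 1 observation. ASP3-1 had 323 and 338 RNA-seq cpm at 4 h, against 163 cpm at 0 h, and 82.5 and 84.3 footprint cpm at 4 h, against 3.02 and 2.78 cpm at 0 h (log2 TE change 3.81, standard error 0.257, edgeR adjusted p = 2.85e-11). YHR033W (3.09) and YJR149W (3.06) rose in TE. IDP2, cytosolic isocitrate dehydrogenase, had 21.2 and 21.6 RNA-seq cpm at 4 h, against 4.06 cpm at 0 h, and 12.5 and 11.7 footprint cpm at 4 h, against 0.299 and 0.309 cpm at 0 h (log2 TE change 2.91, standard error 0.499, edgeR adjusted p = 4.72e-05). PGU1, a secreted pectin-degrading enzyme, was called up in TE on 137 and 64 footprints at 4 h, against 1 and 2 at 0 h (edgeR adjusted p = 8.17e-04).

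HNT1, a histidine triad nucleotide hydrolase (chromosome IV, 239019 to 239606, assembly R64), had 178 and 190.5 RNA-seq cpm at 4 h, against 80.9 cpm at 0 h, whereas its footprints were 12.2 and 11.3 footprint cpm at 4 h, against 165 and 215 cpm at 0 h. The mRNA of HNT1 rose and its footprints fell (log2 TE change -5.20, standard error 0.238, edgeR adjusted p = 3.79e-13). SPP382, an essential factor of spliceosome disassembly, had 40.1 and 38.2 RNA-seq cpm at 4 h, against 15.3 cpm at 0 h, and only 9 and 3 footprints at 4 h, against 405 and 137 at 0 h (log2 TE change -5.90, standard error 0.650, edgeR adjusted p = 3.56e-09). HEF3, a paralog of YEF3, had 12.6 and 12.7 RNA-seq cpm at 4 h, against 5.13 cpm at 0 h, and 7.32 and 8.16 footprint cpm at 4 h, against 68.8 and 102 cpm at 0 h (log2 TE change -4.78, standard error 0.303, edgeR adjusted p = 2.85e-11). HEF3 and YEF3 are similar, and how reads were divided between them is uncertain; their log2 footprint changes were -3.47 and -3.64. YPL162C shared this pattern of opposite calls, with 41.6 and 43.1 RNA-seq cpm at 4 h, against 13.8 cpm at 0 h, and 4.001 and 3.15 footprint cpm at 4 h, against 12.1 and 10.3 cpm at 0 h (log2 TE change -3.24, standard error 0.256, edgeR adjusted p = 1.31e-09). GPI18, a mannosyltransferase of GPI anchor synthesis in the ER, did so too, with 42.97 and 40.2 RNA-seq cpm at 4 h, against 30.8 cpm at 0 h, and 7.05 and 8.04 footprint cpm at 4 h, against 35.1 and 37.6 cpm at 0 h (log2 TE change -2.71, standard error 0.203, edgeR adjusted p = 7.44e-10).

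In CRN1 and FIT3 the mRNA change did not pass the threshold and the footprints fell. CRN1, the actin-binding protein coronin, had 121 and 129.8 RNA-seq cpm at 4 h, against 151 cpm at 0 h, and 15.5 and 12.9 footprint cpm at 4 h, against 207 and 249 cpm at 0 h (log2 TE change -3.73, standard error 0.212, edgeR adjusted p = 1.39e-11). FIT3, a wall protein that holds siderophores, had 8.99 and 12.1 RNA-seq cpm at 4 h, against 10.9 cpm at 0 h, and 9 and 4 footprints at 4 h, against 169 and 71 at 0 h (log2 TE change -3.25, standard error 0.506, edgeR adjusted p = 8.15e-06).

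**Figure D4:**
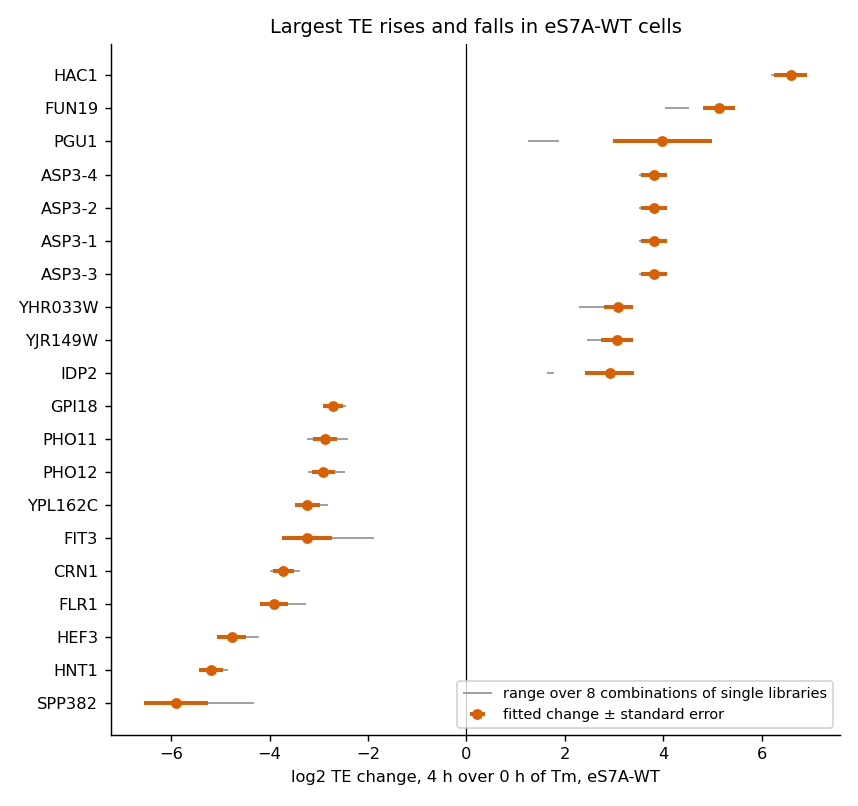
Log2 TE change at 4 h over 0 h of Tm (x axis) for the 10 largest rises and 10 largest falls in eS7A-WT; points are fitted changes with the standard error as thick bars, and thin lines span the 8 combinations of single libraries, computed with 0.5 cpm added. The 4 ASP3 copies have identical counts, and for PGU1, IDP2 and FUN19, with few footprints at 0 h, the thin line lies nearer to 0 than the fitted point.

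The response was set beside that of eS7A-4KR, in which the ubiquitinated lysines of eS7A are replaced by arginine, with the difference tested as an interaction in the same fit. The mRNA change was higher in eS7A-WT for 14.7% of genes and lower for 19.8%. All 136 ribosomal protein genes fell further in eS7A-WT, with a median log2 mRNA change of -3.69 in eS7A-WT cells and -0.82 for eS7A-4KR, and so did 93 of 94 ribosome biogenesis genes (-2.49 in eS7A-WT, -0.60 in eS7A-4KR). Autophagy genes had a higher change in eS7A-WT in 26 of 34 cases (1.55 and 0.40), and trehalose and glycogen genes in 14 of 20 (1.71 and 0.50). For the ER Hsp70 system the medians were 1.27 for eS7A-WT and 1.43 for eS7A-4KR; 0 genes were higher and 1 lower. In TE the change was higher in eS7A-WT for 0.36% of genes and lower for 0.306%. The strains differ in footprint length window as well as in eS7A, which cannot be told apart for TE and footprints. The mRNA and TE differences rest on the only 0 h RNA-seq library of eS7A-WT. Its 10 most abundant genes took 18.2% of its counts, against 13.6% and 13.1% in the 0 h RNA-seq libraries of eS7A-4KR. How far levels at 0 h account for the differences in change was not tested.

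**Figure D5:**
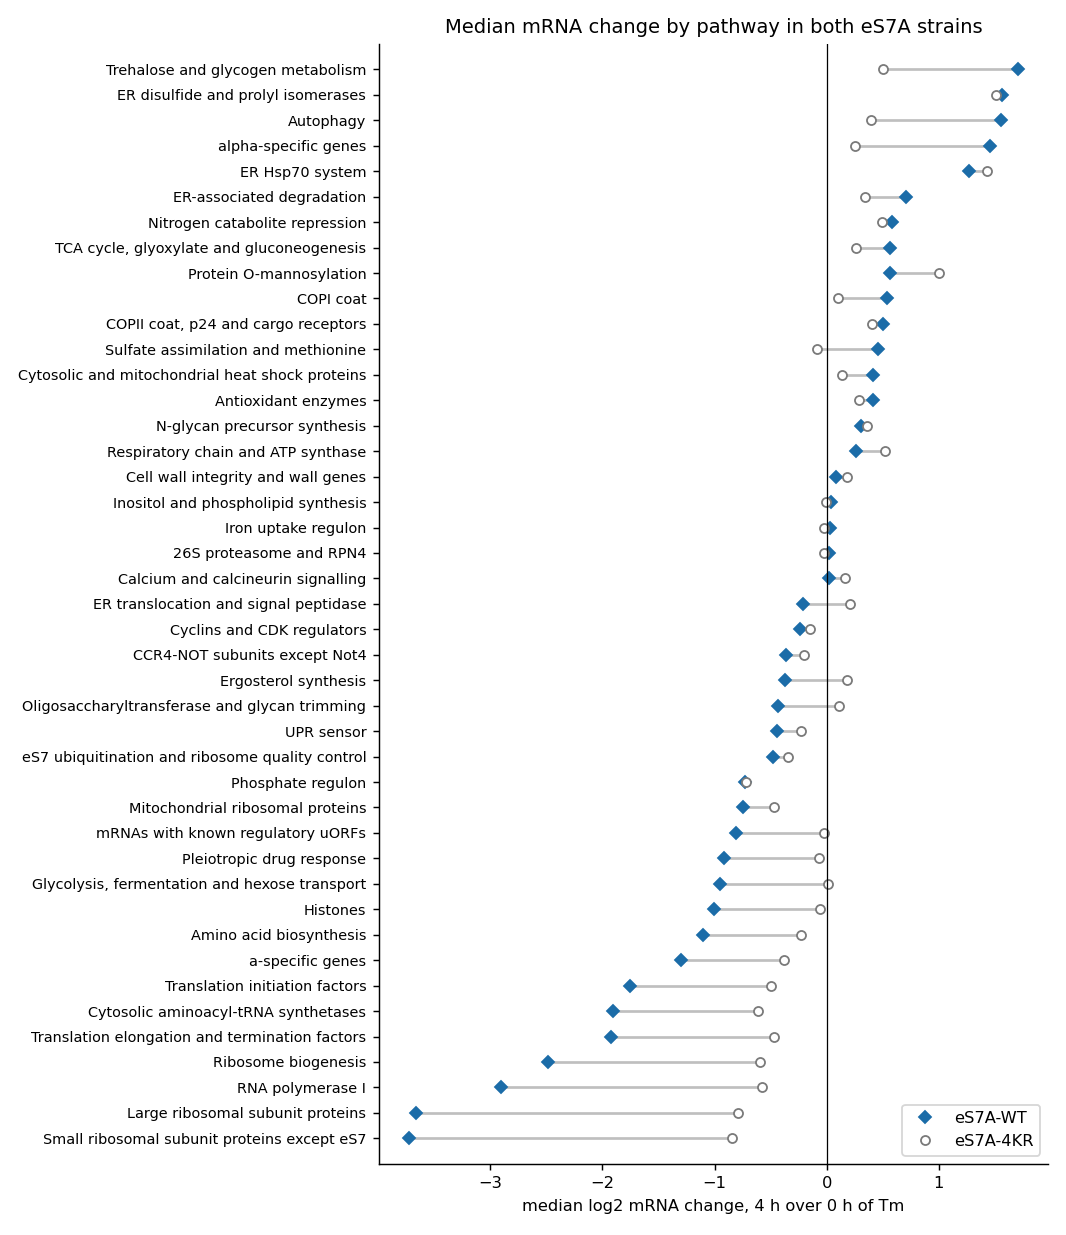
Median log2 mRNA change at 4 h over 0 h of Tm for each gene list (x axis), with eS7A-WT as blue diamonds and eS7A-4KR as open circles joined by a line. Ribosomal protein, RNA polymerase I and biogenesis lists lie farther below 0 in eS7A-WT, while the ER folding lists lie close together.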

How the data were processed

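Ribosome profiling and RNA-seq libraries of eS7A-WT were analysed from the tables the authors deposited, which give unnormalized counts per ORF for 6696 ORFs, replicates kept apart. The unit of the counts was checked as whole numbers; another deposited column, of the unit other, holds the codons counted over and was not used. Per the labels' processing notes, CASAVA 1.8, Bowtie2 2.0.6, TopHat2 2.0.7 and the sacCer3 build were used. The authors removed PCR duplicates by random barcodes and assigned footprints of 29 to 33 nt (4 h) or 30 to 33 nt (0 h) to the A-site, so the window differs with time. Whether counting used the strand is not given in the sources used here.

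Counts of the 15 eS7A libraries were fitted in R 4.3.3 with edgeR 4.0.16 (glmQLFit, glmQLFTest), with 1 group per strain, time and assay and TMM within each assay. The 0 h RNA-seq group has 1 library, so its spread is assumed to be that of the other groups (biological coefficient of variation 0.101, 7 residual degrees of freedom). A second such library was not analysed here. A gene was tested if it averaged 10 or more counts a library for footprints and for RNA-seq (5558 genes), with Benjamini-Hochberg adjustment and a threshold of 0.01. TE was the contrast of time with assay, and standard errors are Wald errors. Replicates of each group differed by more than sampling noise (chi-square per degree of freedom of 18.1 to 35.4 in eS7A-WT). Deviations of same-numbered replicates correlated positively between footprint groups (r = 0.472 to 0.632), so numbers were taken to pair the footprint libraries only. The main fit had no replicate block, so the reported tests do not use this pairing. No alternative fit blocked the footprint libraries alone. Between RNA-seq groups r was 0.0105 and 0.028, but -0.335 between eS7A-WT and eS7A-4KR at 4 h. The cause of this negative value was not tested. Library totals set the precision, which the standard errors carry. The procedure was also run on simulated independent counts with a common spread and no replicate pairing. Such counts lack the pairing seen in these libraries, so the run is no support for the calls.

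The 43 gene lists and the members were chosen with earlier results of these data known. Lists were not tested and are given by counts and medians. The shares over all genes, against which the counts are to be read, are given with the gene totals and repeated for some lists. Named genes are the 10 largest rises and falls per comparison averaging 50 or more counts and with no overlap between times (for TE, the same direction in all 8 combinations of single libraries), up to 4 members per list with the largest called change, others named for their role (YKL154W, within this rule, is not described), and HAC1, HNT1, RPS7A and RPS7B. Gene names and coordinates are from the RefSeq annotation of R64, which matched 6008 of 6696 ORFs. Alternatives were other scalings, DESeq2 1.42.0, other filters, the newer quasi-likelihood method, a threshold of 0.05, replicate blocks, the 7 eS7A-WT libraries alone and each replicate left out. Figures were drawn with matplotlib 3.10.9.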

Additional observations from a re-analysis of the deposited data

Results flagged for a closer look

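The change at 4 h was compared between eS7A-WT and eS7A-4KR for each of the 170 gene values named above, as an interaction in the same edgeR fit. For 119 of them the difference passed an adjusted p of 0.01 with Benjamini-Hochberg adjustment over all 5558 genes, and these are listed as differences on the log2 scale, with the change in eS7A-4KR subtracted from that in eS7A-WT. No group had the 4 libraries needed to test for a single library far from the others. No explanation of the differences was tested, and footprint length windows differed between the strains. The mRNA and TE differences rest on the only 0 h RNA-seq library of eS7A-WT.

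Of the mRNA values named, 40 were higher and 31 lower in eS7A-WT than in eS7A-4KR. In ER folding, glycosylation and degradation the mRNA change was lower in eS7A-WT, by -1.40 for PMT4 and -0.91 for ERV14, and it was higher in eS7A-WT, by 0.97 for SFB2. In lipid synthesis the mRNA change was lower in eS7A-WT, by -1.80 for CDS1 and -1.41 for ERG4, and it was higher in eS7A-WT, by 3.78 for INO1, 1.65 for OPI3 and 0.91 for INO4. For the ribosome and its assembly the mRNA change was lower in eS7A-WT, by -3.62 for RPL9A, -3.53 for RPS22A, -2.81 for RPA43, -2.68 for RPA49 and -2.27 for RPS7A. The few reads assigned to RPS7B, whose chromosomal gene was removed in both strains, gave -2.22 and do not measure a gene apart from RPS7A. In translation factors and tRNA synthetases the mRNA change was lower in eS7A-WT, by -2.36 for YEF3, -1.79 for RPG1, -1.75 for NIP1, -1.75 for KRS1, -1.69 for TIF4631 and -1.54 for CDC60. In amino acid, sulfur and nitrogen metabolism the mRNA change was lower in eS7A-WT, by -3.81 for LEU9 and -1.86 for GAP1, and it was higher in eS7A-WT, by 3.26 for STR3 and 1.06 for PUT1. In iron and phosphate the mRNA change was lower in eS7A-WT, by -3.65 for PHO3. In carbon metabolism and storage sugars the mRNA change was higher in eS7A-WT, by 2.67 for NDE2, 2.33 for GLK1, 2.06 for CIT3, 1.88 for MLS1, 1.63 for PYK2, 1.57 for TPS1, 1.22 for NTH1 and 1.12 for HXT5. In cytosolic chaperones and oxidant defence the mRNA change was lower in eS7A-WT, by -2.65 for SSB1, -2.34 for SSB2 and -1.14 for SOD1, and it was higher in eS7A-WT, by 3.88 for HSP12, 2.69 for HSP42, 2.53 for HSP26, 2.03 for CTT1, 1.82 for PRX1, 1.53 for SRX1 and 1.25 for HSP104. In autophagy the mRNA change was higher in eS7A-WT, by 1.36 for ATG1. In the cell wall, calcium and drug response the mRNA change was lower in eS7A-WT, by -2.86 for TIR1 and -0.95 for CWP1, and it was higher in eS7A-WT, by 2.18 for CMK2, 1.66 for YPS3, 1.34 for RCN1, 1.30 for SLT2, 1.13 for YPS1, 0.86 for PDR15 and 0.64 for PMC1. In histones, the cell cycle and mating the mRNA change was lower in eS7A-WT, by -2.03 for HTB2, -1.89 for HTA2, -1.79 for STE2, -1.67 for CLB6 and -1.38 for FAR1, and it was higher in eS7A-WT, by 1.73 for STE3 and 1.16 for PCL1. Among genes outside the lists the mRNA change was lower in eS7A-WT, by -3.80 for RKI1 and -3.26 for FUR1, and it was higher in eS7A-WT, by 5.21 for MOH1, 4.42 for YPT53, 4.29 for YDL114W, 4.14 for RTA1, 3.84 for MNC1, 3.68 for AMS1, 3.62 for ROQ1, 3.48 for ULI1 and 2.54 for YLR349W.

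Of the footprint values named, 16 were higher and 17 lower in eS7A-WT than in eS7A-4KR. In ER folding, glycosylation and degradation the footprint change was lower in eS7A-WT, by -1.87 for SSH1, -1.11 for TRL1, -1.10 for EPS1, -1.06 for MNL1, -0.84 for CNE1 and -0.76 for SRP68, and it was higher in eS7A-WT, by 1.01 for DER1, 0.86 for USA1, 0.76 for HRD1, 0.67 for DFM1 and 0.65 for SEC72. In lipid synthesis the footprint change was higher in eS7A-WT, by 5.21 for INO1. For the ribosome and its assembly the footprint change was lower in eS7A-WT, by -4.55 for NSR1, -0.85 for GCN1, -0.76 for HEL2 and -0.71 for BRE5. In translation factors and tRNA synthetases the footprint change was lower in eS7A-WT, by -3.20 for HEF3 and -2.76 for YEF3. In amino acid, sulfur and nitrogen metabolism the footprint change was lower in eS7A-WT, by -1.72 for GCN4 and -1.07 for SAM1, and it was higher in eS7A-WT, by 3.04 for JLP1. In iron and phosphate the footprint change was lower in eS7A-WT, by -4.14 for FET3 and -3.77 for PHO84, and it was higher in eS7A-WT, by 3.45 for TIS11 and 2.18 for PHM8. In carbon metabolism and storage sugars the footprint change was higher in eS7A-WT, by 4.34 for TSL1. In autophagy the footprint change was higher in eS7A-WT, by 3.15 for ATG8, 2.47 for ATG39 and 2.11 for ATG40. In the cell wall, calcium and drug response the footprint change was higher in eS7A-WT, by 4.42 for GSC2. Among genes outside the lists the footprint change was lower in eS7A-WT, by -3.46 for INA1, and it was higher in eS7A-WT, by 4.37 for AGX1 and 3.78 for YET2.

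Of the TE values named, 7 were higher and 8 lower in eS7A-WT than in eS7A-4KR. In ER folding, glycosylation and degradation the TE change was higher in eS7A-WT, by 4.05 for HAC1. In translation factors and tRNA synthetases the TE change was lower in eS7A-WT, by -4.46 for HEF3. In amino acid, sulfur and nitrogen metabolism the TE change was higher in eS7A-WT, by 2.28 for ASP3-1. In iron and phosphate the TE change was lower in eS7A-WT, by -2.77 for FIT3. In carbon metabolism and storage sugars the TE change was higher in eS7A-WT, by 1.21 for GDB1. In the cell wall, calcium and drug response the TE change was lower in eS7A-WT, by -2.08 for FLR1. Among genes outside the lists the TE change was lower in eS7A-WT, by -3.92 for SPP382, -2.90 for HNT1, -2.25 for YPL162C, -1.92 for CRN1 and -1.40 for GPI18, and it was higher in eS7A-WT, by 3.85 for FUN19, 2.78 for YHR033W, 2.62 for IDP2 and 2.30 for YJR149W.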

How the results depend on the processing

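The counts of mRNA and footprint calls stayed within 1.5 times of 3321 and 3860 under every alternative run, between 2837 and 3416 and between 3519 and 3775 with 1 library left out, whereas total-count scaling turned their balance to 2087 rises against 723 falls and 2927 against 904. The count of TE calls, 243, was less stable. It was 124 with the newer quasi-likelihood method, 437 at an adjusted p below 0.05, and between 153 and 285 with 1 library left out, and the cause was not tested. With a replicate block it was 461 by number, 610 by number within each assay and 387 by culture, and the block changed the counts of mRNA and footprint calls by less than 1.5 times. The only 0 h RNA-seq library could not be left out. Of 170 named gene values, 137 kept their direction and call under every alternative that tested them. A missing adjusted p was counted as kept. With 10 counts required in every eS7A-WT library, 152 values stayed the same, 1 lost its call and the rest were not tested. The values that did not keep their direction and call gave 74 lost and 3 gained calls. The calls were lost in 33 cases with 1 library left out, 22 under total counts and 17 with the newer method. IRE1 footprints turned to a log2 change of 0.20 under total counts. List medians moved by no more than 1 SD over combinations of single libraries in 1661 of 1978 comparisons. With fewer footprint counts at 4 h than at 0 h, genes with few footprints are measured less precisely after treatment.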
